A study of Mus musculus with 14 samples.

Results

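The interferon-stimulated genes described here are 41 mouse genes that type I interferon is known to switch on, chosen as a list of symbols and matched to Ensembl gene IDs among the 39179 in the count tables. All 41 were matched, and 40 of them passed the filter on low counts that left 12630 genes tested. The untested member was Ifi44, with at most 0.671 CPM (counts scaled to library size) in any library. The levels were read by RNA-seq in primary follicular B cells from the spleen of C57BL/6 mice, isolated with a magnetic bead kit and given the survival cytokine BAFF at 50 ng/ml. At 0h there were dbko cells, which carry relb-/-crel-/-, cko cells, which carry crel-/-, and wild type (wt) cells. At 6h with BAFF the same 3 genotypes were sampled, and at 27h wt cells alone, with 2 libraries in each of the 7 groups. The knockouts are given as whole-animal genotypes with no Cre driver named, and the labels leave unsaid if paired libraries derive from separate mice, so p-values measure the spread between these libraries, which may be technical. No culture without BAFF was among the libraries, and the effects of BAFF and of culture time cannot be told apart.

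Type I interferon binds the IFNAR1 and IFNAR2 receptor, whose kinases JAK1 and TYK2 phosphorylate STAT proteins. STAT2 and IRF9 are subunits of the ISGF3 complex, which binds the interferon-stimulated response element (ISRE) in the promoters of antiviral genes. Resting lymphocytes keep a low level of many of these genes under tonic interferon signalling, and RelB and c-Rel, the NF-kB subunits missing here, act downstream of the BAFF receptor in B cells.

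Gene counts summed to 10497802 to 11888765 per library. Rel was at 40 to 111 CPM in the 8 cko and dbko libraries, against 621 to 683 CPM in wt at 0h and 6h. Relb was at 53 to 88.4 CPM in dbko, against 115 to 164 CPM in wt at 0h and 6h. Whether the counted reads lie in the deleted parts was not tested. None of the 9 B cell markers in the tables was at 0 in any library, and they summed to 10828 to 19015 CPM. Among the members, the 2 dbko libraries at 6h stood apart from each other. Replicate 1 was above replicate 2 in 38 of the 40 tested members, with summed member levels of 3087 and 2293 CPM, while in the other groups replicate 1 was above in 9 to 22 of 40. The macrophage and monocyte markers, all 16 of which are in the tables, summed to 653 and 343 CPM in these dbko libraries, against 103 and 90.6 CPM in wt at 6h. Replicate 1 of dbko, at 0h and at 6h, also stood apart from all other libraries in Trim30d and Trim34a. Beyond the members, replicates diverged in further groups. The chi-square per gene between replicates was 38.25 for dbko 6h, 33.23 for dbko 0h and 23.74 for cko 6h. The wt groups and cko 0h had values of 2.98 to 5.04. The main fit pools the spread of all groups. Its p-values may be too low where the more divergent groups enter, and too high where only the tighter groups do. Counts of members and medians that rest on the dbko libraries at 6h are given with and without each of them. The shares of all genes called are those of the main fit and were not computed for the other fits.

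RefSeq promoter windows (GRCm38.p6, 250 bases before to 50 after each annotated start) were found for 31 of the 41 members. The core of the ISRE, searched on either strand as GAAA and GAAA with any 2 bases between, was present in 13 of the 31 members, or 41.9%, against 3.99% of the 27025 genes with a window. A match describes letters and shows no binding. Of the 22 members with a window that fell in wt cells at 6h, 10 held a match, and of the other 9 members 3 did. The longer form with a C after the core was present in 10 of 31 members and 0.944% of genes. The GAS palindrome, TTC and GAA with any 3 bases between, was present in 7 of 31 members, or 22.6%, and 9.55% of genes. The kappaB motif, GGG and TTTCC with any 2 bases between, was present in 0 of 31 members and 1.89% of genes.

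The 200 bases before the annotated start are shown for 4 members that carry matches and fell in wt at 6h, and for the 2 members that rose, in which the window held none. They are written 5′ to 3′ on the strand of the gene, with matches to the core in capitals. Isg15 lies at chr4:156200819-156201018 on the minus strand, Ifit3 at chr19:34583329-34583528 on the plus strand, Rsad2 at chr12:26456453-26456652 on the minus strand, Slfn5 at chr11:82951902-82952101 on the plus strand, Slfn2 at chr11:83064912-83065111 on the plus strand and Dtx3l at chr16:35939028-35939227 on the minus strand.
Isg15: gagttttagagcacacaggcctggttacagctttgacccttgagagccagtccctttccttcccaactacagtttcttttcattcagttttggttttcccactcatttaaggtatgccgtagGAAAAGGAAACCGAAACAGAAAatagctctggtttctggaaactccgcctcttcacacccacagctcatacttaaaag
Ifit3: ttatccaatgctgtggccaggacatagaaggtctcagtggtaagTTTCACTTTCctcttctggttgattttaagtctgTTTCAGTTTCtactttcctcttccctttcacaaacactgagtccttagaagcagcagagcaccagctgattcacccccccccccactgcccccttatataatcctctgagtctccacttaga
Rsad2: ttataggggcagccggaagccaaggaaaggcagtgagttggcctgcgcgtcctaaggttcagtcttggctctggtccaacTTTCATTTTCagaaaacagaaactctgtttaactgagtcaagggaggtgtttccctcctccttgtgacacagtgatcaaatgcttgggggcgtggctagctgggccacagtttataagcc
Slfn5: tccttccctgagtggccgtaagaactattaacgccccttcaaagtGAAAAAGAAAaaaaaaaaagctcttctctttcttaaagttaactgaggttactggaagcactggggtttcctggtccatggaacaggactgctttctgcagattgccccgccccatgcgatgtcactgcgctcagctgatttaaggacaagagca
Slfn2: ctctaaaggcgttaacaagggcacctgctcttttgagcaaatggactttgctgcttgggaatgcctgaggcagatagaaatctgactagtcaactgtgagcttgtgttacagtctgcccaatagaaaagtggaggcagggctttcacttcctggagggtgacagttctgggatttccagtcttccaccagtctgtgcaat
Dtx3l: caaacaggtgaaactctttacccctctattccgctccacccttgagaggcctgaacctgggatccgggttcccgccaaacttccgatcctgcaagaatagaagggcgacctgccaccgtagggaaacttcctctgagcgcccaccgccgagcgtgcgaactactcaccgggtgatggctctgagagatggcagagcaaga
In Isg15, 3 overlapping matches formed 1 run, and Slfn5 had 1 match, on the strand of the gene. Ifit3 had 2 separate matches and Rsad2 had 1, on the other strand, where the core reads as TTTC.

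**Figure D1:**
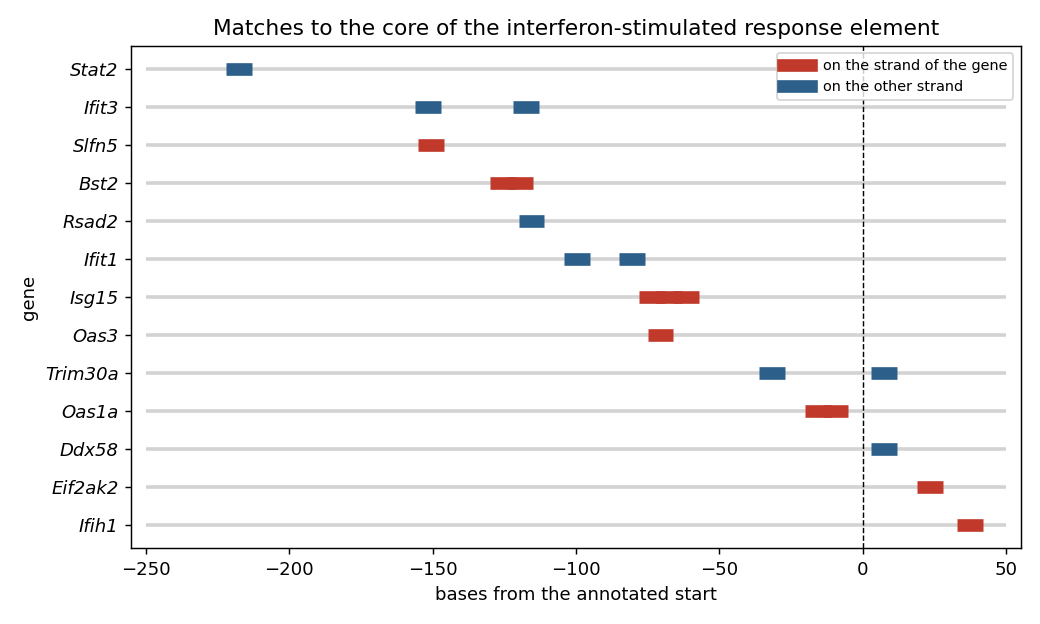
Matches to the ISRE core in the RefSeq promoter windows of the 13 members that hold one; the x axis gives bases from the annotated start (dashed line), red bars are matches on the strand of the gene and blue bars on the other strand. The 3 matches of Isg15 overlap, and those of Ddx58, Eif2ak2 and Ifih1 lie just after the start.

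Levels before culture spanned a wide range. In wt libraries at 0h the mean ran from 0.194 CPM for Ifi44 to 449 CPM for Samd9l, a suppressor of viral protein synthesis, with a median of 27.7 CPM over the members. Per kilobase of exon, the highest mean was that of Ifi27l2a at 262 CPM per kb, followed by Samd9l at 82.8 and Slfn2 at 63.9 CPM per kb. The median of the 41 members per kilobase was 7.95 CPM per kb in wt at 0h, 2.42 CPM per kb at 6h and 3.76 CPM per kb at 27h. Slfn2, a regulator of lymphocyte quiescence, took the first place at 6h with 116 CPM per kb and at 27h with 148 CPM per kb. Before culture, dbko and cko cells had the same leading gene, Ifi27l2a, with 241 CPM per kb in dbko and 284 CPM per kb in cko.

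**Figure D2:**
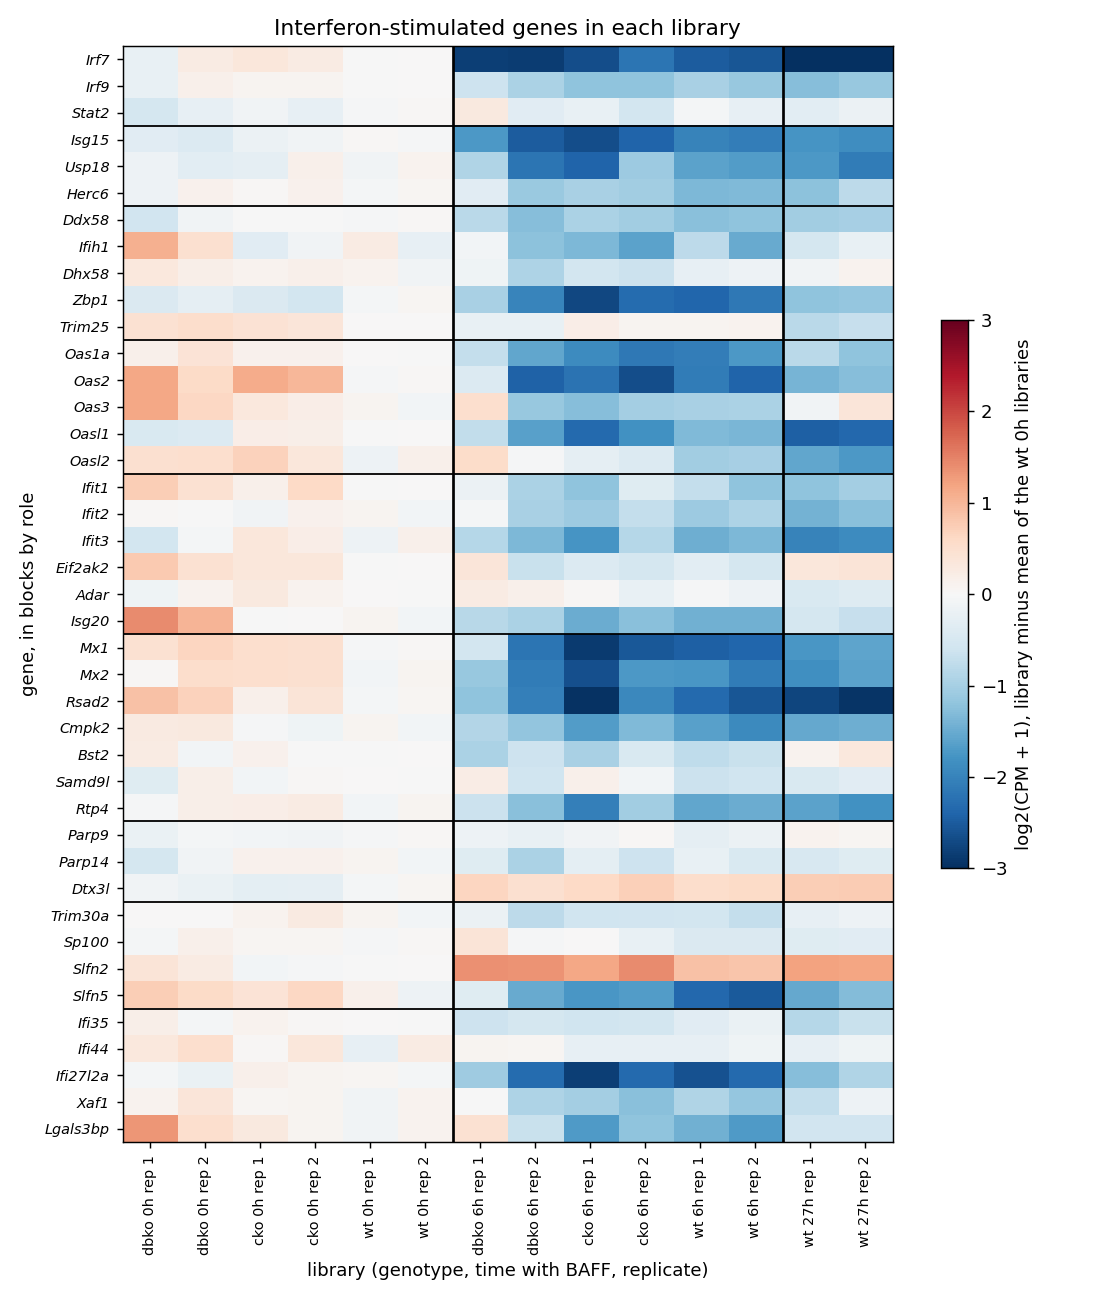
Level of the 41 members in each of the 14 libraries, as log2 of CPM plus 1 minus the mean of the 2 wt libraries at 0h; rows are genes in blocks by role, columns are libraries ordered by time and, within a time, dbko, cko and wt, and the colour scale ends at -3 and 3. Most rows are blue at 6h in every genotype, Slfn2 and Dtx3l are red, and replicate 1 of dbko at 6h is paler than replicate 2.

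In wt cells the greater part of the list was lower at 6h than at 0h. Of the 40 members tested 29 fell and 2 rose, against 23.5% lower and 22.6% higher, or 46.2% in either direction, among all genes tested. Of the 29 that fell, 25 did so at least 2-fold. The median log2 fold change was -1.35 over the members and 0 over all genes. The test was edgeR's quasi-likelihood test, two-sided, with Benjamini-Hochberg adjustment over all genes tested and a call at an adjusted p under 0.05. Of the 31 calls 22 held whichever of the 4 libraries was left out, and within lane 7 and lane 8 the median differences of log2 of CPM plus 1 were -1.11 and -1.26. In such bulk samples, fewer cells of a type and less RNA per cell cannot be told apart. Markers of macrophages and monocytes moved alongside, with 11 of 15 tested lower in wt at 6h. Their sum without Hmox1, a stress-inducible enzyme, was 41.1 and 40.6 CPM at 6h, against 185 and 188 CPM at 0h in wt. The complement genes C1qa, C1qb and C1qc were at 0.0915 to 0.764 CPM at 6h, against 12.7 to 17.7 CPM at 0h, and Fcgr1 was at 0 in 1 library at 6h. The B cell's own markers moved too, with 6 of 9 general B cell markers lower and 0 higher, summing to 10828 and 10961 CPM at 6h against 17035 and 17403 CPM at 0h, and all 4 follicular markers lower, at 1362 and 1344 CPM against 3253 and 3304 CPM. Of conventional dendritic cell markers 4 of 8 tested were lower and 1 higher. Their sums were 76.6 and 74.3 CPM at 6h against 62.4 and 57.2 CPM at 0h. Of erythroid markers 4 of 11 were lower and 1 higher, with sums of 421 and 471 CPM against 200 and 207 CPM. The median log2 fold changes of these lists were -2.2 and -2.45, opposite to their sums. The part of these markers in the result was not tested.

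The factors that read the interferon signal did not move together. Irf7, the master regulator of interferon production, was at 57.5 and 57.8 (0h), 9.43 and 8.83 (6h), and 3.82 and 5.67 CPM (27h) in wt. The times did not overlap, and the level at 6h was 6.31-fold lower than at 0h (log2 fold change -2.66 ± 0.21 SE, n = 2 a group, edgeR adjusted p = 1.26e-06). Irf9, the DNA-binding subunit of ISGF3, was at 160 and 161 (0h), 80.9 and 72.1 (6h), and 66 and 72.9 CPM (27h) in wt. Its levels after culture lay below both 0h libraries, 2.1-fold lower at 6h (edgeR adjusted p = 7.23e-05). Stat2, its partner, was at 141 and 150 (0h), 139 and 123 (6h), and 117 and 129 CPM (27h) in wt, and was not called at 6h (log2 fold change -0.15 ± 0.19 SE, edgeR adjusted p = 0.536). Irf7 overlaps Phrf1 on the other strand and Irf9 overlaps Rnf31 on the same strand in the annotation, and the sources used here do not give how such reads were counted.

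ISG15 is a ubiquitin-like modifier, USP18 removes it from proteins and also damps the receptor, and HERC6 is its main ligase in the mouse. All 3 genes fell. Isg15 was at 12.8 and 12.2 (0h), 2.38 and 2.21 (6h), and 2.97 and 2.72 CPM (27h) in wt. It was 5.43-fold lower at 6h than at 0h (log2 fold change -2.44 ± 0.3 SE, edgeR adjusted p = 4.6e-05), and the 6h and 27h libraries lay close together. Herc6 was at 34.1 and 37.6 (0h), 13.5 and 13.6 (6h), and 14.7 and 20.4 CPM (27h) in wt. Usp18 was 4.46-fold lower at 6h, at 1.65 and 1.53 CPM against 6.57 and 7.65 CPM at 0h. Its edgeR adjusted p was 0.0151 with all libraries, and 0.0659 when wt 0h replicate 2 was left out, 0.0756 for wt 6h replicate 1 and 0.0867 for wt 6h replicate 2.

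Among the 5 sensors of viral nucleic acid and their activators, Ddx58, Ifih1 and Zbp1 fell in wt at 6h, and Dhx58 and Trim25 were not called. Zbp1, which senses Z-form nucleic acid and can start necroptosis, was at 42.3 and 45.6 (0h), 7.69 and 9.09 (6h), and 18.5 and 19.2 CPM (27h) in wt. Its 3 times formed 3 separate pairs, with 27h between 6h and 0h, and the 6h level was 5.23-fold below 0h (log2 fold change -2.39 ± 0.28 SE, edgeR adjusted p = 3.68e-05). Ddx58, which encodes the RNA sensor RIG-I, was at 61.9 and 63.1 CPM at 6h, against 145 and 151 CPM at 0h. Ifih1, which encodes MDA5, was low throughout, with 3.2 and 1.53 CPM at 6h, against 7.61 and 5.13 CPM at 0h, and its call was lost without wt 0h replicate 1 (edgeR adjusted p = 0.159) or wt 6h replicate 2 (0.192). Trim25, a ligase that acts on RIG-I, was at 274 in both libraries (0h), 290 and 293 (6h), and 156 and 170 CPM (27h) in wt. It was not called at 6h against 0h and fell by 27h (27h against 6h, log2 fold change -0.84 ± 0.1 SE, edgeR adjusted p = 7.85e-05).

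The 2-5A synthetases make the messenger that activates RNase L, and 4 of the 5 genes in that family and its OAS-like branch fell in wt at 6h. Oas2 was 6.96-fold lower, at 1.92 and 1.36 CPM at 6h against 11.2 and 11.7 CPM at 0h (log2 fold change -2.8 ± 0.64 SE, edgeR adjusted p = 0.0047). Oas1a was 6.44-fold lower, at 0.732 and 1.19 CPM against 6.36 and 6.2 CPM. Both were near 1 CPM at 6h, where few reads carry the value. Oas3 was not called at 6h, with 2.38 and 2.46 CPM, against 6.04 and 5.32 CPM at 0h. Oasl1, a translational brake on Irf7 in the mouse, was at 37.6 and 38.2 (0h), 14.6 and 14.1 (6h), and 6.12 and 6.55 CPM (27h) in wt. Oasl1 and Oasl2 were each lower again at 27h than at 6h, whereas Oas1a was higher at 27h than at 6h. The Oas genes lie side by side on chromosome 5 and have near copies, and reads that fit more than 1 place are outside the counts, so their levels are uncertain.

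Of the 6 genes that bind, edit or degrade RNA or stop translation, Ifit1, Ifit2, Ifit3 and Isg20 fell in wt at 6h, and Eif2ak2, which encodes the kinase PKR, and Adar, an RNA editing enzyme, were not called. Eif2ak2 was at 24.3 and 21 CPM at 6h, against 30.2 and 31 CPM at 0h. Isg20, an exonuclease, was at 19 and 17 (0h), 5.95 and 5.94 (6h), and 12.1 and 10.8 CPM (27h) in wt, so that the 27h libraries lay between the other times (6h against 0h, log2 fold change -1.6 ± 0.18 SE, edgeR adjusted p = 2.77e-05). The IFIT proteins bind viral RNA that lacks host cap marks. Ifit3 was at 4.17 and 5.42 (0h), 1.1 and 1.27 (6h), and 0.425 and 0.559 CPM (27h) in wt. Ifit1 was at most at 2.32 CPM in the wt libraries and its call was lost without wt 0h replicate 1 (edgeR adjusted p = 0.107), wt 0h replicate 2 (0.115) or wt 6h replicate 2 (0.237). Ifit2 had an edgeR adjusted p of 0.0564 without wt 6h replicate 1. The Ifit genes are neighbours on chromosome 19 with near copies, as the Mx, Slfn, Trim30 and Ifi27l2 genes are elsewhere, and their levels carry the same uncertainty.

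All 7 genes of the antiviral GTPase, nucleotide and membrane group fell in wt at 6h. Rsad2, which encodes viperin and makes a chain-terminating nucleotide, was at 10.5 and 11.5 (0h), 1.37 and 1.02 (6h), and 0.765 and 0.559 CPM (27h) in wt. Rsad2 had the most negative fold change of the list at 6h, 9.17-fold lower (log2 fold change -3.2 ± 0.47 SE, edgeR adjusted p = 0.000172), and at 27h, 16.5-fold lower (log2 fold change -4.04 ± 0.5 SE, edgeR adjusted p = 4.6e-05). Cmpk2, its neighbour and partner in nucleotide metabolism, was 4.06-fold lower at 6h, at 4.12 and 3.23 CPM against 15.7 and 14.1 CPM at 0h. Mx1, a gene of the dynamin-like GTPase family, was at 13.2 and 13.8 (0h), 1.65 and 1.78 (6h), and 3.31 and 3.83 CPM (27h) in wt. It was 7.84-fold lower at 6h than at 0h (edgeR adjusted p = 0.000447). Mx2, annotated as a polymorphic pseudogene, was 6.2-fold lower, and Rtp4, a receptor transporter protein gene, 3.52-fold lower. Bst2, the tetherin that holds budding virus, was at 27.6 and 27.9 (0h), 15.9 and 17.2 (6h), and 29.8 and 34.8 CPM (27h) in wt. The 27h libraries of Bst2 lay above both other times. Without wt 6h replicate 1 the edgeR adjusted p of Bst2 at 6h was 0.0566, and that of Samd9l, 1.54-fold lower, was 0.114 to 0.155 without any 1 of the 4 libraries.

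Only Slfn2 and Dtx3l rose in wt at 6h among the 40 members tested. Slfn2 was at 105 and 108 (0h), 196 and 191 (6h), and 248 and 245 CPM (27h) in wt. It rose 1.82-fold by 6h (log2 fold change 0.87 ± 0.11 SE, edgeR adjusted p = 4.78e-05) and 2.32-fold by 27h (edgeR adjusted p = 2.78e-06), in 3 pairs that did not overlap. Its neighbour Slfn5 on chromosome 11 moved the other way, with 36.1 and 28.7 (0h), 5.49 and 4.76 (6h), and 10.4 and 12.5 CPM (27h) in wt (6h against 0h, log2 fold change -2.66 ± 0.32 SE, edgeR adjusted p = 5.81e-05). Dtx3l, a ubiquitin ligase that works as a pair with PARP9, was at 52.3 and 56.5 (0h), 79.4 and 80.8 (6h), and 91.8 and 93.5 CPM (27h) in wt (6h against 0h, log2 fold change 0.56 ± 0.1 SE, edgeR adjusted p = 0.000753). Parp9 itself was at 83.1 and 87.1 (0h), 70.5 and 75.8 (6h), and 91.8 and 89.1 CPM (27h) in wt, and was not called at 6h. The 2 genes overlap on opposite strands, and with no strand setting given, reads in the overlap cannot be told apart. Parp14, the third gene of the cluster, was not called at 6h or 27h against 0h. Trim30a and Sp100, a nuclear body protein, fell 1.55-fold and 1.35-fold by 6h. Trim30a lost the call without wt 0h replicate 1 (edgeR adjusted p = 0.052) or wt 6h replicate 2 (0.0586), and Sp100 without any 1 of the 4 libraries (0.0763 to 0.11).

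Of the remaining interferon-induced genes, Ifi27l2a, Lgals3bp and Xaf1 fell in wt at 6h. Ifi27l2a, a small membrane protein gene, was at 127 and 116 (0h), 18.9 and 23.2 (6h), and 49.4 and 64.7 CPM (27h) in wt. The 3 times were apart, and the level was 5.76-fold lower at 6h than at 0h (edgeR adjusted p = 0.000212). Lgals3bp, a secreted glycoprotein gene, was 3.31-fold lower at 6h, at 6.41 and 5.18 CPM against 17.6 and 20.7 CPM at 0h. Xaf1, a pro-apoptotic gene, lost its call without wt 0h replicate 2 (edgeR adjusted p = 0.0544) or wt 6h replicate 2 (0.0707). Ifi35 was not called at 6h and fell by 27h, at 37.2 and 42.2 CPM against 67.7 and 67.6 CPM at 0h (edgeR adjusted p = 0.000167).

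**Figure D3:**
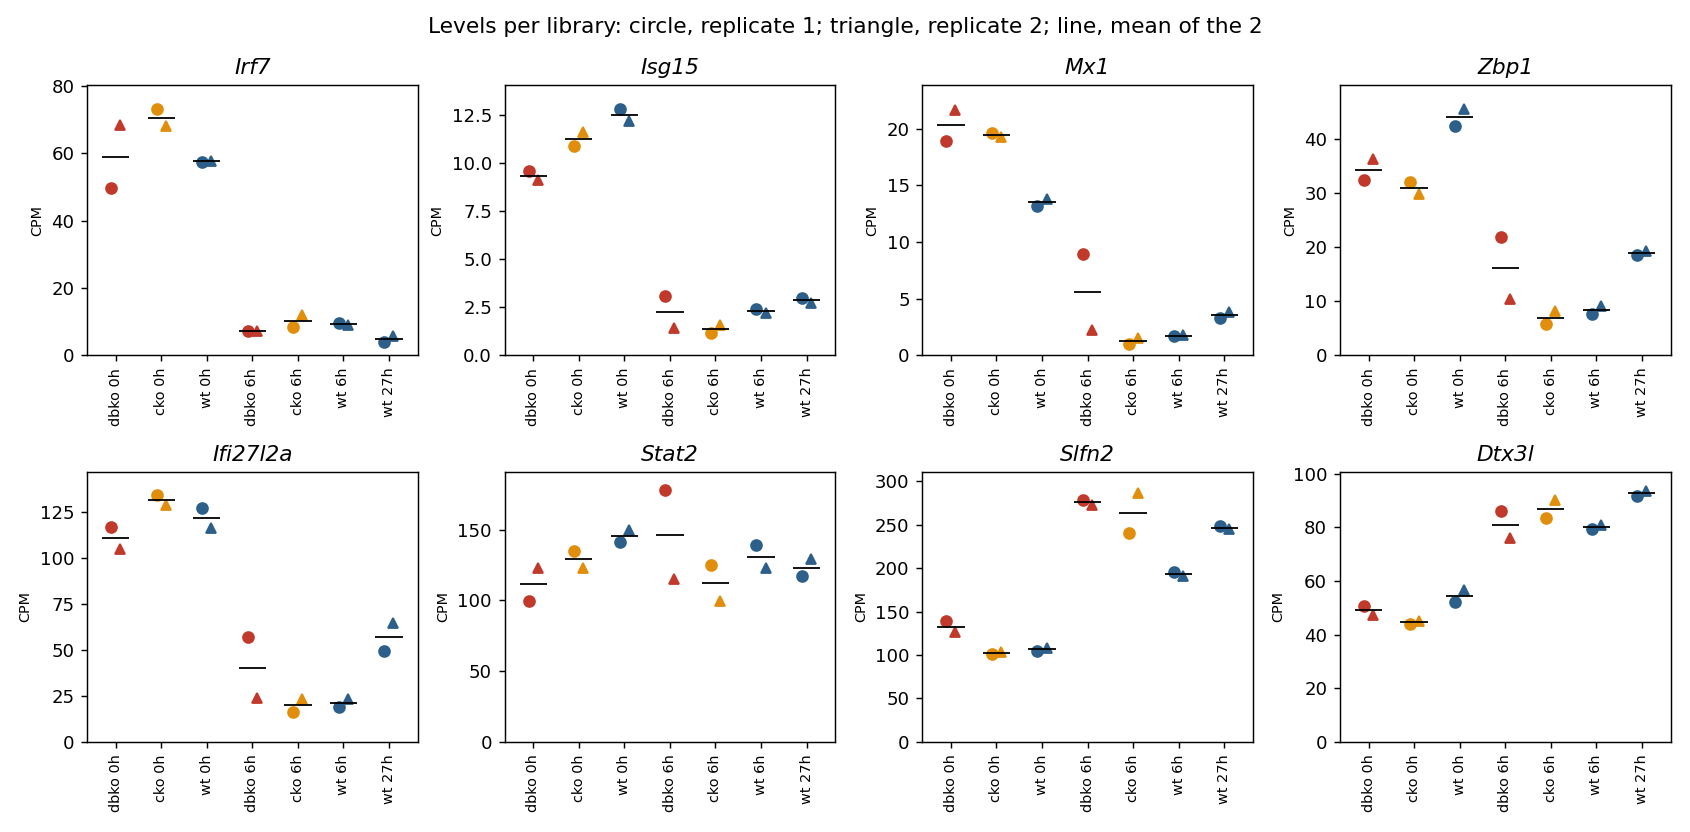
CPM of 8 members in every library, by time and, within a time, dbko, cko and wt; circles are replicate 1, triangles replicate 2, lines the mean of the 2, and each y axis starts at 0. Irf7, Isg15, Mx1, Zbp1 and Ifi27l2a are low at 6h, Slfn2 and Dtx3l are high, Stat2 stays between 99.5 and 178 CPM, and the dbko replicates at 6h are far apart for Mx1, Zbp1 and Ifi27l2a.

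At 27h the list was still below its 0h level in wt, with 25 of 40 members lower and 2 higher, against 24.6% and 23%, or 47.6% in either direction, of all genes, and a median log2 fold change of -1.03 against 0. In both comparisons with 0h 22 members were lower, against 15.5% of all genes. Of the 27 calls at 27h 20 held with any 1 of the 4 libraries left out. Oas2, Ifit1 and Adar lost theirs without any 1 of them (edgeR adjusted p of 0.116 to 0.172, 0.0547 to 0.103 and 0.0545 to 0.0903), and Usp18 without wt 27h replicate 2 (0.0629). Between 6h and 27h the members parted, with 10 higher and 5 lower at 27h, against 15.9% and 18.2%, or 34.1% in either direction, of all genes, and a median log2 fold change of 0.27 against 0.01. Zbp1, Lgals3bp, Isg20, Bst2, Oas1a, Slfn5 and Ifi27l2a had fallen by 6h and were higher at 27h than at 6h, a course that 6.6% of all genes took, and 5 of these 7, all but Lgals3bp and Bst2, were still below 0h. Against 0h, the call of Oas1a was lost without wt 0h replicate 1 (edgeR adjusted p = 0.0574), wt 0h replicate 2 (0.0522) or wt 27h replicate 2 (0.117), that of Isg20 without wt 0h replicate 1 (0.0652) or wt 27h replicate 2 (0.0738), and that of Ifi27l2a without wt 0h replicate 1 (0.0746) or wt 27h replicate 1 (0.112). Ifi27l2a was 2.71-fold higher at 27h than at 6h (log2 fold change 1.44 ± 0.34 SE, edgeR adjusted p = 0.00862). Irf7, Oasl2 and Oasl1 went on falling, as did 3.08% of all genes, Oasl1 by 2.26-fold (log2 fold change -1.18 ± 0.27 SE, edgeR adjusted p = 0.00557). The counts of this comparison moved with single libraries. The 15 members called became 5 and 8 when replicate 1 or 2 of wt at 6h was left out and 7 and 8 for replicate 1 or 2 of wt at 27h, and the calls of Oasl1, Trim25, Isg20 and Bst2 held in all 4 cases, while the other 11 each lost theirs in at least 1. Oasl2 lost it without any 1 of the 4 (edgeR adjusted p of 0.0976 to 0.185). For Ifi27l2a the edgeR adjusted p was 0.0712 when wt 6h replicate 1 was left out and 0.0575 for wt 27h replicate 2, and for Irf7 it was 0.051 when wt 6h replicate 1 was left out and 0.0934 for wt 27h replicate 1. Macrophage and monocyte markers without Hmox1 summed to 74.1 and 80.9 CPM at 27h, between the sums at 6h and 0h. At 27h against 0h, 6 of 9 general and all 4 follicular B cell markers were lower in wt, the follicular ones at 945 and 938 CPM. The part of these markers was not tested.

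In cko cells the list also fell by 6h. Of the 40 members 32 were lower and 2 higher at 6h than at 0h, against 20.1% and 21.8%, or 41.9% in either direction, of all genes, with a median log2 fold change of -1.42 against 0.05. Oas2 was at 1.67 and 0.981 CPM at 6h, against 25.9 and 23.8 CPM at 0h (log2 fold change -4.23 ± 0.65 SE, edgeR adjusted p = 0.000487). Mx1 was at 0.967 and 1.47 CPM at 6h, against 19.6 and 19.3 CPM at 0h (log2 fold change -3.98 ± 0.5 SE, edgeR adjusted p = 8.48e-05). Both times were well apart for these genes. Irf7 was at 8.35 and 11.8 CPM at 6h, against 73.1 and 68.1 CPM at 0h (log2 fold change -2.8 ± 0.2 SE, edgeR adjusted p = 8.93e-07). Isg15 was 8.27-fold and Irf9 2.48-fold lower, and Stat2 was again not called (edgeR adjusted p = 0.414). Of the 34 calls 24 held with any 1 of the 4 libraries left out. Slfn2 was at 240 and 287 CPM at 6h, against 101 and 104 CPM at 0h, and rose 2.57-fold (edgeR adjusted p = 1.71e-06), and Dtx3l rose 1.95-fold. Of the 15 tested macrophage and monocyte markers 1 was lower and 1 higher in cko at 6h. Without Hmox1 the 15 others summed to 31.4 and 30.8 CPM at 6h, against 44.7 and 39.2 CPM at 0h, with Fcgr1 at 0 in all 4 libraries. Of the 11 erythroid markers 9 were lower at 6h and 0 higher, with sums of 283 and 273 CPM against 345 and 355 CPM. Lower were also 4 of 8 conventional dendritic cell markers, at 42.6 and 45.6 CPM against 50.9 and 47.6 CPM in sum, with 1 higher, 6 of 9 B cell markers, at 12698 and 13844 CPM against 16617 and 16050 CPM, and 3 of 4 follicular markers, at 1335 and 1316 CPM against 3115 and 3197 CPM. Their part in the result was not tested.

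In dbko cells 26 members were lower and 2 higher at 6h than at 0h, against 20.3% and 19.3%, or 39.6% in either direction, of all genes, and the median log2 fold change was -0.84 against 0.03. That median was -1.31 without dbko 6h replicate 1 and -0.62 without dbko 6h replicate 2, and within lane 7 and lane 8 the median differences of log2 of CPM plus 1 were -0.57 and -1.24. Irf7 was at 7.28 and 7.11 CPM at 6h, against 49.6 and 68.5 CPM at 0h, 8.19-fold lower (log2 fold change -3.03 ± 0.21 SE, edgeR adjusted p = 6.39e-07). Its replicates at 6h lay close together. Mx1 was at 8.9 and 2.19 CPM at 6h, against 18.9 and 21.7 CPM at 0h (log2 fold change -1.88 ± 0.42 SE, edgeR adjusted p = 0.00414). Isg20 was at 9.71 and 8.75 CPM at 6h, against 49.6 and 37.2 CPM at 0h (log2 fold change -2.23 ± 0.17 SE, edgeR adjusted p = 1.7e-06). Rsad2 was 6.48-fold and Isg15 4.16-fold lower, with each 6h library below both 0h libraries. Slfn2 rose 2.09-fold and Dtx3l 1.65-fold, as in the other genotypes. The count of 28 called members ranged from 20, without dbko 6h replicate 2, to 35, without dbko 6h replicate 1, and 19 calls held with any 1 of the 4 left out. With the 4 dbko libraries fitted alone it was 8, of which 6 were lower, and the adjusted p of Mx1 was 0.132. In dbko at 6h 10 of 11 erythroid markers were lower and 0 higher, with sums of 519 and 358 CPM, against 1807 and 1058 CPM at 0h. Conventional dendritic cell markers were lower in 5 of 8 and higher in 0, with sums of 133 and 51.4 CPM against 158 and 113 CPM. All 4 follicular B cell markers were lower, at 618 and 558 CPM against 1805 and 2509 CPM, 5 of 9 general B cell markers were lower, and 7 of 9 markers of marginal zone and B-1 B cells were higher and 1 lower, at 787 and 1035 CPM against 408 and 911 CPM. Of macrophage and monocyte markers 2 of 15 were higher and 1 lower. The part of these markers in the result was not tested.

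Over the 3 genotypes, 22 of the 40 members fell by 6h in every one, against 11.5% of all genes. Dtx3l and Slfn2 rose in every one, 2 of 40 against 10.1% of all genes. Parp9, Adar and Stat2 were called in none, 3 of 40 against 35.2%.

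**Figure D4:**
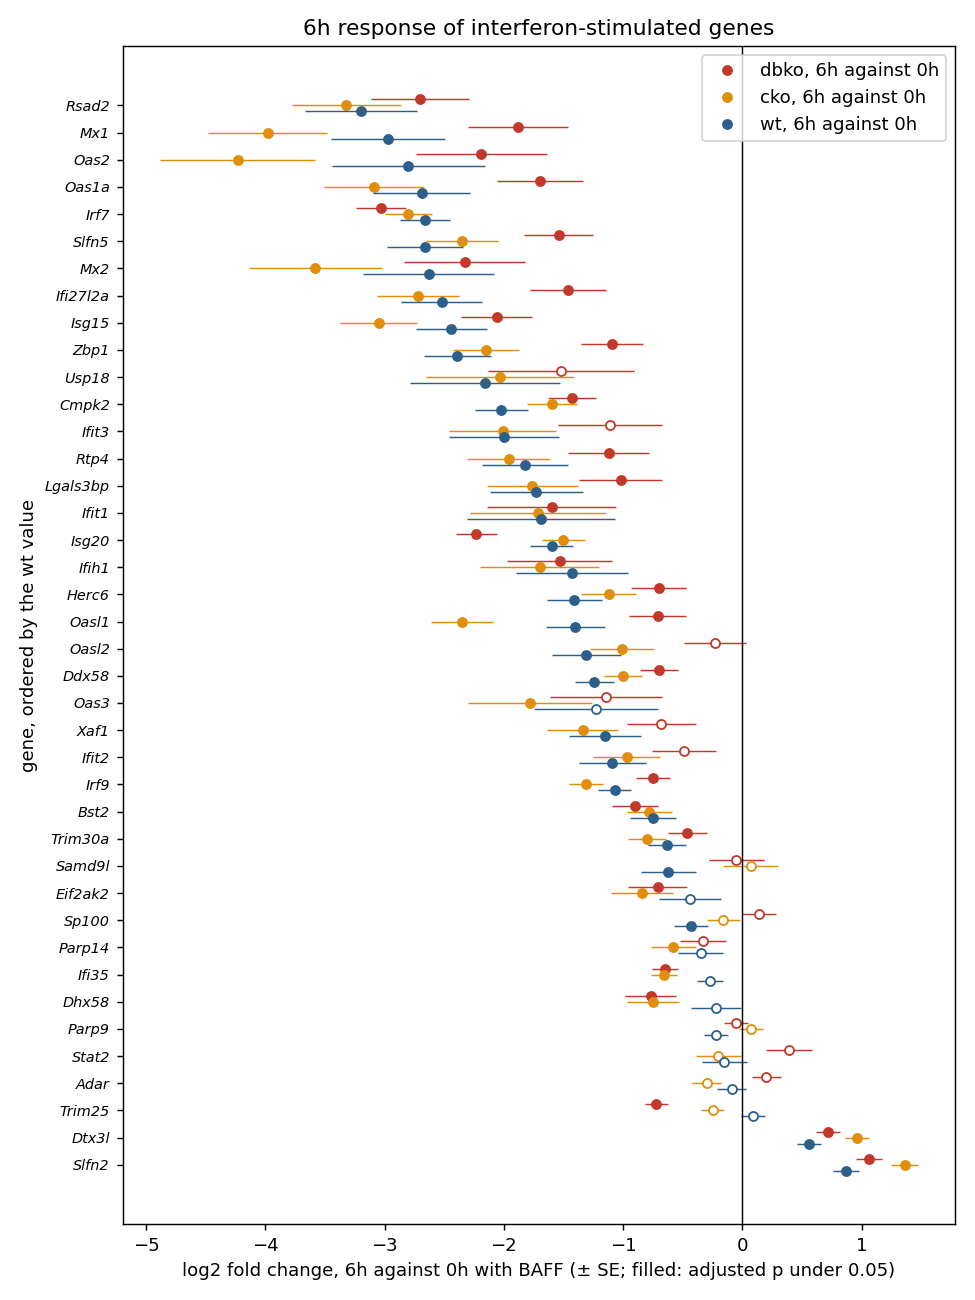
Log2 fold change of the 40 tested members at 6h against 0h with its standard error, in dbko (red), cko (orange) and wt (blue), ordered by the wt value; filled points have an adjusted p under 0.05. Points of all 3 genotypes lie left of 0 for most members and right of 0 for Dtx3l and Slfn2, and the dbko points of Mx1, Oas1a, Slfn5, Ifi27l2a and Zbp1 lie nearer to 0 than the wt points.

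Before culture few members were called between genotypes in the main fit. In cko against wt at 0h, 0 members were called in either direction, against 0.918% higher and 0.578% lower, or 1.5% in either direction, among all genes. The median log2 fold change was 0.12 against -0.02, 3 members had an unadjusted p under 0.05 in edgeR, and DESeq2 called 1. With only the groups compared in the edgeR fit, 12 members were called, 10 higher and 2 lower in cko. Within lane 7 and lane 8, 28 and 29 of 40 members were higher in cko. The sum of the members was 3285 and 3279 CPM in cko, against 3072 and 3050 CPM in wt. In dbko against wt at 0h, Isg20 and Trim25 were higher and no member was lower. Of all genes 7.1% were higher and 4.55% lower, or 11.7% in either direction. In cko at 0h Trim25 was at 369 and 353 CPM, and was not called against wt or dbko. Isg20 was at 49.6 and 37.2 CPM in dbko, against 19 and 17 CPM in wt, 2.41-fold higher without overlap (log2 fold change 1.27 ± 0.17 SE, edgeR adjusted p = 0.000385). Trim25 was at 379 and 398 CPM in dbko, against 274 CPM in both wt libraries (log2 fold change 0.5 ± 0.1 SE, edgeR adjusted p = 0.00589, and 0.0688 and 0.0687 without wt 0h replicate 1 or 2). Without dbko 0h replicate 2 the count of 2 became 5, and without either wt library it became 1. In dbko against cko at 0h Isg20 alone was called, higher in dbko, against 6.63% of all genes, with 0 members lower against 2.39%, and 9.03% of all genes called in either direction. Its level was 17.8 and 18 CPM in cko (log2 fold change 1.28 ± 0.17 SE, edgeR adjusted p = 0.000796), and without dbko 0h replicate 2 the count of 1 became 5. Erythroid markers summed to 1807 and 1058 CPM in dbko, against 345 and 355 CPM in cko and 200 and 207 CPM in wt at 0h, and all 11 were higher in dbko than in wt. Of conventional dendritic cell markers 5 of 8 were higher in dbko than in wt and 0 lower, and of follicular B cell markers 3 of 4 were lower and 0 higher. In cko against wt, 6 of 15 macrophage and monocyte markers were lower and 4 of 11 erythroid markers higher. The part of these markers was not tested.

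At 6h Slfn2 alone was called in cko against wt, higher, against 1.58% of all genes, and 0 members were lower against 1.96%, with 3.54% of all genes called in either direction. It was at 240 and 287 CPM in cko, against 196 and 191 CPM in wt (log2 fold change 0.45 ± 0.11 SE, edgeR adjusted p = 0.0366). The call was lost without wt 6h replicate 1 (0.209), wt 6h replicate 2 (0.275) or cko 6h replicate 2 (0.241). The median log2 fold change of the members was 0.05 against 0.02 over all genes, and it was -0.08 without cko 6h replicate 2 and 0.18 without cko 6h replicate 1.

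In dbko against wt at 6h, 11 members were higher and 1 was lower, against 15.2% and 11.5%, or 26.7% in either direction, of all genes. In either direction the 12 of 40 lay near that background. The median log2 fold change was 0.57 over the members and 0.05 over all genes, and was 0.02 over the members without dbko 6h replicate 1 and 0.86 without dbko 6h replicate 2. Slfn5 was at 24.8 and 10.7 CPM in dbko, against 5.49 and 4.76 CPM in wt, 3.46-fold higher (log2 fold change 1.79 ± 0.32 SE, edgeR adjusted p = 0.00236). Oasl2 was at 9.14 and 5.78 CPM in dbko, against 2.38 and 2.46 CPM in wt, 3.07-fold higher (log2 fold change 1.62 ± 0.28 SE, edgeR adjusted p = 0.00167). In cko at 6h Oasl2 lay between them, at 4.75 and 4.25 CPM, and was not called against wt. Slfn2 was at 279 and 273 CPM in dbko, against 196 and 191 CPM in wt (log2 fold change 0.51 ± 0.11 SE, edgeR adjusted p = 0.00422). These 3 calls held with any 1 of the 4 libraries left out, and the 2 genotypes did not overlap. The other 9 calls did not hold in that way. Lgals3bp was at 26.6 and 11.6 CPM in dbko, against 6.41 and 5.18 CPM in wt (edgeR adjusted p = 0.00805), and Mx1 at 8.9 and 2.19 CPM, against 1.65 and 1.78 CPM (0.0274). Without dbko 6h replicate 1 the adjusted p was 0.0581 for Lgals3bp and 0.524 for Mx1. Zbp1 was at 21.8 and 10.3 CPM in dbko, against 7.69 and 9.09 CPM in wt (edgeR adjusted p = 0.0275, and 0.343 without dbko 6h replicate 1). Trim25 was the lower member, at 236 CPM in both dbko libraries, against 290 and 293 CPM in wt (log2 fold change -0.3 ± 0.1 SE, edgeR adjusted p = 0.0366, and 0.0719 to 0.164 without any 1 of the 4 libraries). Irf7, Irf9, Stat2 and Isg15 were not called, with log2 fold changes of -0.34, 0.29, 0.16 and -0.04.

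The count in that comparison followed the dbko library used. Whether the share of all genes called moved alike was not tested. The 12 members called became 26 without dbko 6h replicate 2 and 5 without dbko 6h replicate 1, and 5 and 3 without wt 6h replicate 1 and wt 6h replicate 2. Higher in dbko were 26, 3, 5 and 3 of these, and with only the 4 libraries compared in the fit 1 member was called. The median difference in log2 of CPM plus 1 was 0.66 in lane 7, which holds replicate 1, with 35 of 40 members higher in dbko, and 0.02 in lane 8, which holds replicate 2, with 22 of 40 higher. Of the 15 tested macrophage and monocyte markers 14 were higher in dbko than in wt, and 0 lower. Csf1r, the receptor that marks macrophages, was at 32.8 and 7.58 CPM in dbko at 6h, against 2.2 and 1.19 CPM in wt. The macrophage and monocyte sum without Hmox1 was 288 and 99.1 CPM in dbko, against 41.1 and 40.6 CPM in wt, with Fcgr1 at 0 in replicate 2 of dbko and replicate 1 of wt. The 9 markers of conventional dendritic cells summed to 133 and 51.4 CPM in dbko, against 76.6 and 74.3 CPM in wt, with Clec10a at 0 in all 4. Of the 8 tested, 4 were higher in dbko and 2 lower, with a median log2 fold change of 2.99, which the sums do not show. Plasmacytoid dendritic cells are the main makers of type I interferon. The 10 markers listed for them summed to 805 and 878 CPM in dbko, against 1022 and 1055 CPM in wt. Of the 7 tested, 1 was higher and 2 were lower. The list includes Bst2, itself a member, and how much of the sum comes from the B cells themselves was not tested. Of the 11 erythroid markers 10 were higher in dbko and 1 was lower, with a median log2 fold change of 6.47. In each wt library 4 of the 11 were at 0. The sums hide this difference, at 519 and 358 CPM in dbko against 421 and 471 CPM in wt. The list includes Tfrc, and its share of these sums was not tested. All 4 follicular B cell markers were lower in dbko, at 618 and 558 CPM, against 1362 and 1344 CPM in wt. Of 9 general B cell markers 3 were higher in dbko and 1 lower, at 13810 and 17974 CPM, against 10828 and 10961 CPM in wt. Markers of marginal zone and B-1 B cells were higher in 6 of 9 and lower in 0, at 787 and 1035 CPM in dbko, against 676 and 668 CPM in wt. Between the dbko libraries, the sums of macrophage, conventional dendritic cell, erythroid, neutrophil and follicular B cell markers were higher in replicate 1. Higher in replicate 2 were the sums of general B cell and of marginal zone and B-1 B cell markers. The same held for T cell, NK cell, plasma cell and plasmacytoid dendritic cell markers. Their part in the result was not tested. In dbko against cko at 6h, 5 members were higher and 1 lower, against 8.77% and 4.66%, or 13.4% in either direction, of all genes, with a median of 0.43 against 0. Without dbko 6h replicate 1 that median was 0.05, and without dbko 6h replicate 2 it was 0.79. The called members were Mx1, Oas1a, Lgals3bp, Zbp1 and Oasl1, higher, and Trim25, lower. Without dbko 6h replicate 1 or cko 6h replicate 1 the 6 calls became 0, and without dbko 6h replicate 2 they became 24, and the lane medians were 0.81 and -0.09.

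**Figure D5:**
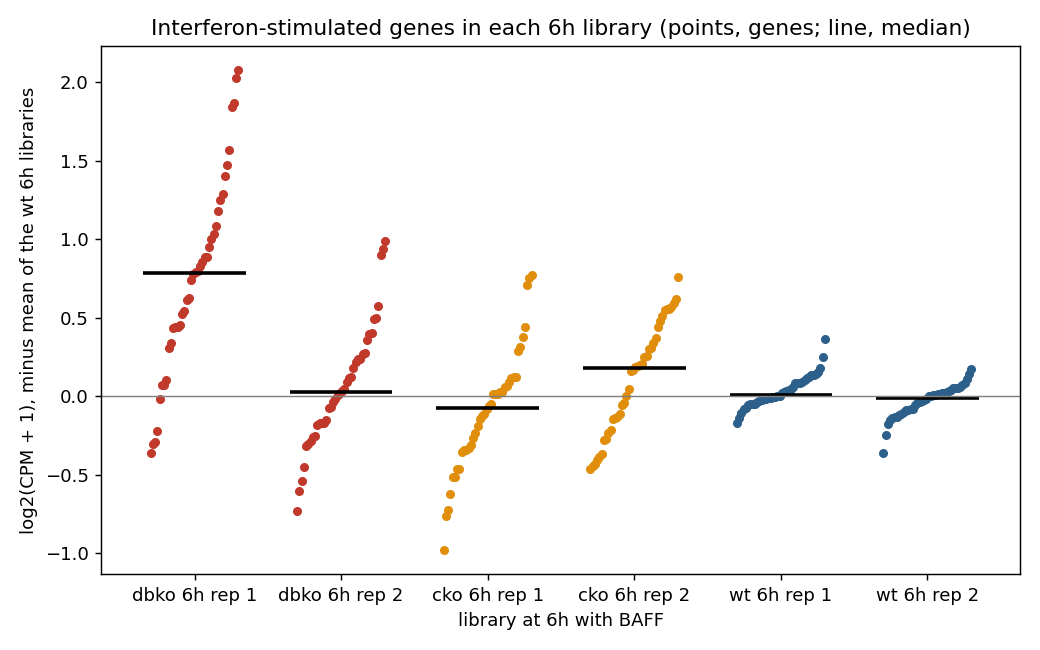
The 40 tested members in each library at 6h, as log2 of CPM plus 1 minus the mean of the 2 wt libraries at 6h; points are genes sorted by value within a library and lines are medians. Replicate 1 of dbko lies above the other 5 libraries, while replicate 2 of dbko and both cko libraries scatter around 0.

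The difference between genotypes in the change by 6h was tested as such. For dbko against wt, the difference was positive for 1 member and negative for 1, against 6.9% and 6.94%, or 13.8% in either direction, of all genes, and the median was 0.49 over the members and 0.05 over all genes. It was 0 without dbko 6h replicate 1 and 0.8 without dbko 6h replicate 2. Zbp1 had log2 fold changes of -1.09 ± 0.26 SE in dbko and -2.39 ± 0.28 SE in wt, a difference of 1.29 ± 0.38 SE (edgeR adjusted p = 0.0405). It was lost without any 1 of 6 libraries, with an adjusted p of 0.0974 and 0.12 when replicate 1 or 2 of wt at 0h was left out, 0.141 and 0.0965 for replicate 1 or 2 of wt at 6h, and 0.101 and 0.0983 for replicate 1 of dbko at 0h or at 6h. Trim25 had log2 fold changes of -0.72 ± 0.1 SE in dbko and 0.09 ± 0.1 SE in wt, a difference of -0.81 ± 0.14 SE (edgeR adjusted p = 0.00369). That call held with any 1 of the 8 libraries left out. Without dbko 6h replicate 2 the count of 2 became 15, without dbko 0h replicate 2 it became 6, without dbko 6h replicate 1 it became 3, and without dbko 0h replicate 1 or any 1 wt library it became 1. For cko against wt and for dbko against cko 0 members were called, against 0.554% higher and 1.15% lower, or 1.7% in either direction, of all genes for cko against wt, and 0.586% higher and 0.348% lower, or 0.934% in either direction, for dbko against cko. In edgeR 5 and 12 members had an unadjusted p under 0.05 in these comparisons, and DESeq2 called 0 and 2. For dbko against cko the count of 0 became 11 without dbko 6h replicate 2 and 3 without dbko 0h replicate 2, and for cko against wt it became 1 without cko 6h replicate 1. The comparisons share libraries, so their values are not independent of each other.

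Transcripts of the interferon genes looked up were barely detectable in these counts. Of 10 type I and III interferon genes from a fixed list, 6 had no count in any library. The 10 together had 6 counts in 4 of the 14 libraries. Interferon genes outside that list were not looked up. Reads that fit more than 1 place are outside the counts, so transcripts of genes with near copies could be missed. Ifng, the type II interferon, was at most at 1.86 CPM, and was higher in dbko than in wt at 6h, at 1.86 and 1.56 CPM against 0.183 and 0.34 CPM (log2 fold change 2.65 ± 0.54 SE, edgeR adjusted p = 0.00401, and 0.00396 to 0.0486 with 1 of the 4 libraries left out). Among the 16 receptor, kinase and feedback genes 4 rose and 5 fell in wt at 6h, against 22.6% and 23.5% of all genes. The genes of the type I receptor were not among those that fell. Ifnar1 was at 281 and 288 CPM at 6h, against 194 and 197 CPM at 0h in wt (log2 fold change 0.54 ± 0.11 SE, edgeR adjusted p = 0.00194), and Ifnar2 at 45.3 and 47.8 CPM, against 39.4 and 41.3 CPM (adjusted p = 0.151). Socs3 and Socs1, inhibitors of cytokine receptor kinases, fell in all 3 genotypes, though Socs1 in dbko was not called without dbko 0h replicate 1 (edgeR adjusted p = 0.0859) or dbko 6h replicate 1 (0.057). Socs3 fell to 15 and 13.6 CPM at 6h in wt, against 76 and 74.3 CPM at 0h (edgeR adjusted p = 3.59e-06). Ifnlr1, a receptor chain for type III interferon, rose in all 3, to 16.1 and 14.7 CPM at 6h in wt, against 3.13 and 4.07 CPM at 0h (edgeR adjusted p = 0.000158).

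Of 8 tested interferon regulatory factors outside the list, 3 fell and 1 rose in wt at 6h, against 23.5% and 22.6% of all genes. Irf1, an activator of many of the same promoters, fell in each genotype by 6h. In wt Irf1 had a log2 fold change of -1.78 ± 0.14 SE (edgeR adjusted p = 1.77e-06), in cko of -1.02 ± 0.14 SE (0.000121) and in dbko of -0.88 ± 0.14 SE (0.000374). At 0h Irf1 was called lower in dbko than in wt, and at 6h it was not called between them. The change of Irf1 was smaller in dbko than in wt by 0.9 ± 0.2 SE (edgeR adjusted p = 0.0119). That call was lost without wt 0h replicate 2 (0.0571) or wt 6h replicate 2 (0.0678) and held without any 1 dbko library. Irf8, a factor of B and myeloid cells, was not called at 6h against 0h in any genotype, but was called between dbko and wt at 6h. Of 17 tested genes that sense nucleic acid upstream of interferon, 5 rose and 6 fell in wt at 6h. Of all genes, 22.6% rose and 23.5% fell. Tlr3, the endosomal sensor of double-stranded RNA, was at 0.549 and 0.764 CPM in wt at 6h, against 4.38 and 5.81 CPM at 0h (log2 fold change -2.93 ± 0.42 SE, edgeR adjusted p = 0.000136), and fell in cko and dbko too. Tbk1, the kinase that activates IRF3 and IRF7, was at 181 and 183 CPM at 6h, against 99.3 and 95.2 CPM at 0h, and rose in all 3 genotypes.

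A second list of 47 interferon-stimulated genes gave a less one-sided picture. Of 43 tested, 18 were lower and 7 higher in wt at 6h, with a median log2 fold change of -0.39. Of all genes, 23.5% were lower and 22.6% higher. In cko 19 were lower and 6 higher, against 20.1% and 21.8% of all genes. In dbko 17 were lower and 5 higher, against 20.3% and 19.3% of all genes. Epsti1 was at 19.9 and 19 CPM in wt at 6h, against 90.4 and 88.8 CPM at 0h (log2 fold change -2.2 ± 0.16 SE, edgeR adjusted p = 6.85e-07), and fell in cko and dbko as well. Pml, which builds nuclear bodies with SP100, was at 127 and 125 CPM at 6h, against 351 and 350 CPM at 0h (edgeR adjusted p = 2.39e-06). Ifitm2, which blocks viral entry, went the other way, at 10.6 CPM in both wt libraries at 6h, against 0.834 and 0.968 CPM at 0h (log2 fold change 3.54 ± 0.28 SE, edgeR adjusted p = 1.37e-06). Ms4a4b, a membrane protein gene, rose in wt (log2 fold change 2.88 ± 0.28 SE, edgeR adjusted p = 8.48e-06) and in both knockouts. Of 24 tested GTPase and antigen processing genes that interferon gamma induces, 12 were lower and 1 higher in wt at 6h. The counts were 11 and 1 in cko, and 9 and 0 in dbko. The shares of all genes were those just given for the second list. Psmb9, an immunoproteasome subunit, was at 77.4 and 83.1 CPM in wt at 6h, against 122 CPM in both libraries at 0h (edgeR adjusted p = 0.000554), and B2m at 1703 and 1903 CPM, against 2660 and 2782 CPM (adjusted p = 0.0126).

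Trim30d and Trim34a lie near Trim30a on chromosome 7 and resemble it. Replicate 1 of dbko had Trim30d at 0.564 CPM at 0h and 0.566 CPM at 6h, against 15.9 to 66.3 CPM in the other 12 libraries. Trim34a was at 4.13 and 6.96 CPM in the same 2 libraries, against 50.5 to 95.6 CPM in the other 12. Trim30a itself was at 147 and 129 CPM there, within the range of the other libraries. The labels give C57BL/6 for all mice, and whether these 2 libraries differ from the others in strain background was not tested.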

How the data were processed

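RNA-seq was made from 14 libraries of mouse follicular B cells, 2 in each of 7 groups of genotype and time. The deposited tables hold the authors' raw read counts per Ensembl gene ID, not normalised. The submitters' processing notes name CASAVA 1.8.2. Nothing in the sources used here gives the build, the aligner, the counter or the strand setting. Lines for reads that hit no gene (5.21 to 11.46% of all counted reads per library), an ambiguous gene (0.41 to 0.49%) or several places (38.77 to 49.85%) were left out. Symbols came from GENCODE M21, for 37607 of 39179 gene IDs.

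Counts were fitted with edgeR 4.0.16 in R 4.3.3 (TMM scaling, robust quasi-likelihood fit with 1 mean per group, 7 residual degrees of freedom). Genes were filtered by edgeR's expression filter, which left 12630. Tests were two-sided, with p-values adjusted by Benjamini-Hochberg over all genes tested and a threshold of 0.05. Fitted fold changes use a prior count of 2. CPM uses the scaled library sizes, and CPM per kb divides by the union of a gene's exons. With 2 libraries in a group, n = 2 for each mean. The fit was tested on simulated data with known fold changes. Promoter windows came from RefSeq for GRCm38.p6 and motifs were searched on both strands. Tables and plots used Python 3.11.15, pandas 2.3.3, NumPy 2.4.6 and Matplotlib 3.10.9.

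The members and all other lists were chosen with earlier results of these data known. By rule, each comparison names the called members with the 8 largest rises and 8 largest falls whose average log2 CPM reaches 1, and always Irf7, Irf9, Stat2 and Isg15. Up to 4 called genes of each other list are named, and always Ifnar1, Ifnar2, Irf1 and Irf8, while a further gene of that rule is not reported here. Further members, and Ifng, Trim30d, Trim34a and the cell type markers quoted, were named with their values seen. Alternatives were DESeq2 size factors, no filter, DESeq2 1.42.0, a replicate block, fits on only the groups compared, each library left out, each dbko replicate left out at both times, and values within a lane. Where a library was left out, the lone library of its group was assumed to vary like the other groups. The macrophage marker sum without Hmox1 and a replicate block for dbko alone were added after seeing the data. Replicate 1 was sequenced in lane 7 and replicate 2 in lane 8, per the labels.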

Additional observations from a re-analysis of the deposited data

Results flagged for a closer look

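For 2 members the difference between genotypes in the change by 6h itself passed the test, 2 of 40 against 13.8% of all genes for dbko minus wt. Zbp1, a sensor of Z-form nucleic acid, fell by less in dbko than in wt, by 1.29 ± 0.38 SE on the log2 scale (edgeR adjusted p = 0.0405), and did not pass with any 1 of 6 of the 8 libraries left out. Trim25, a ubiquitin ligase that acts on RIG-I, fell in dbko and was not called in wt by 6h, a difference of -0.81 ± 0.14 SE (edgeR adjusted p = 0.00369), and passed with any 1 of the 8 libraries left out (highest adjusted p 0.0266). Both dbko libraries lay below both wt libraries for Trim25 at 6h and above them at 0h. At 0h cko lay near dbko for Trim25, at 369 and 353 CPM against 379 and 398 CPM, with wt at 274 CPM in both libraries. At 6h cko was at 316 and 292 CPM, against 236 CPM in both dbko libraries.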

How the results depend on the processing

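Counts of called members are given against the edgeR fit of all 14 libraries. The share of all genes called was computed for that fit only. Whether calls over all genes moved alike under the other settings was not tested. With 1 library left out they were 24 to 26 for wt 6h against 0h, 21 to 23 for wt 27h against 0h, 5 to 8 for wt 27h against 6h, 26 to 29 for cko 6h against 0h, 20 to 35 for dbko 6h against 0h, 0 to 0 for cko against wt at 0h, 1 to 5 for dbko against wt at 0h, 1 to 5 for dbko against cko at 0h, 0 to 1 for cko against wt at 6h, 3 to 26 for dbko against wt at 6h and 0 to 24 for dbko against cko at 6h. For the differences in the change by 6h they were 0 to 1 (cko minus wt), 1 to 15 (dbko minus wt) and 0 to 11 (dbko minus cko). With only the compared groups fitted, the counts were 27 for wt 27h against 6h, 8 for dbko 6h against 0h, 12 for cko against wt at 0h, 1 for dbko against wt at 0h and at 6h, 0 for dbko against cko at 6h, 3 for cko minus wt and 1 for dbko minus wt. With DESeq2 size factors they were 1 for cko against wt at 0h and 1 for dbko minus cko. With no filter they were 1 for cko against wt, 9 for dbko against wt and 5 for dbko against cko at 0h, 4 for cko against wt and 13 for dbko against cko at 6h, 2 for cko minus wt, 4 for dbko minus wt and 5 for dbko minus cko. DESeq2 gave 1 for cko against wt and 2 for dbko against cko at 0h, 10 for dbko against cko at 6h and 2 for dbko minus cko. Without dbko replicate 1 at both times they were at 0h 6 for dbko over wt and 2 for dbko over cko, 3 for dbko minus wt and 2 for dbko minus cko. Without dbko replicate 2 at both times they were 17 and 14 at 0h, 29 and 28 at 6h, 21 for dbko minus wt and 23 for dbko minus cko. The median member log2 fold change turned its sign to -0.09 within lane 8 for dbko against cko at 6h, to -0.08 without cko 6h replicate 2 and -0.14 within lane 7 for cko against wt at 6h, to 0.12 without cko 6h replicate 1 (-0.21 to 0.12 with 1 library left out) and 0.04 within lane 8 for cko minus wt, to -0.02 without dbko replicate 1 at both times and -0.02 within lane 8 for dbko minus wt, and to -0.11 within lane 8 for dbko minus cko. The causes were not tested.

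Of 21 pairs of groups, 4 had same-numbered libraries that deviated together with a correlation over 0.1 (range -0.17 to 0.483), so the numbers share a lane and are not taken as pairs. The highest was between dbko at 0h and at 6h, a hint from the data that these libraries pair by number. With a replicate block for dbko alone, chosen after seeing the data, the counts were 33 for dbko 6h against 0h, 7 for dbko minus wt and 1 for dbko minus cko. With the replicate block over all groups the count for wt 27h against 6h was 17, with Oas3 and Trim30a added, and the counts of the other comparisons were those without it. Over 190 pairs of gene and comparison, 927 of 981 values kept their side of the threshold with all libraries used, 702 of 904 with libraries left out, and 0 called values turned their direction. With 2 libraries a group, members near 1 CPM rest on few reads.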
